A study of Mus musculus with 11 samples.

Results

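Alveolar fibroblasts are the mesenchymal cells of the gas-exchanging walls of the lung. The cells described here were chosen from droplet-based 3′ single-cell RNA sequencing of dissociated mouse lung by their counts of unique molecular identifiers (UMIs, each standing for 1 captured transcript). Barcodes were kept when they carried between 1000 and 30000 UMIs, of which mitochondrial genes made up no more than 14%. A kept barcode was a member when it held 3 or more UMIs of Col1a2 and Col3a1 together, no Ptprc UMI, 2 or more UMIs of the alveolar genes Npnt, Itga8 and Tcf21 together, and more of these than of the adventitial genes Pi16, Col14a1 and Serpinf1 together. This gave 1109 members among 69267 kept cells from 81983 barcodes, which is 1.60% of the kept cells. The same gate with the adventitial genes in excess gave 342 adventitial fibroblasts, and 165 collagen-positive cells met neither condition.

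The study compared 11 lung libraries of 4 genotypes at the p21 (Cdkn1a) locus. The 3 p21Het libraries came from mice heterozygous for p21 (+/-), the 5 p21mTert libraries from +/mTert mice and the 2 p21mTertCD libraries from +/mTertCD mice. The single WT library came from a wild type (+/+) mouse. The p21 gene encodes a cyclin-dependent kinase inhibitor, and mTert is the mouse telomerase reverse transcriptase. The series title speaks of mTert induction in p21-positive cells, and the labels do not spell out the CD of mTertCD. All groups but WT carried 1 altered copy of p21, and the alteration was not limited to a cell type by any label. Mice were 18 months old per the age labels, except p21Het_1 at 19 months and p21mTert_1 at 20 months. The libraries WT_1, p21Het_1 and p21mTert_1 form a first deposit, whose titles carry no replicate number, and the other 8 libraries a later one. The labels do not say how many mice went into a library, so the p-values below measure the spread between these libraries.

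In the healthy lung, alveolar fibroblasts lie beside the alveolar epithelium and the capillaries, lay down collagen and elastic fibres, store lipid and retinoid, and supply growth factors of the WNT, FGF and BMP families to epithelial stem cells. They carry the receptor PDGFRA and need the transcription factor TCF21 for their development. Adventitial fibroblasts, in contrast, line the sheaths of airways and large vessels.

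Members numbered 49 in WT_1. They numbered 86, 139 and 56 in p21Het_1 to p21Het_3, and 46, 132, 89, 236 and 69 in p21mTert_1 to p21mTert_5. In p21mTertCD_1 and p21mTertCD_2 they numbered 63 and 144. The median member held 6229 to 11673.5 UMIs per library, against 4133 to 6454 in all kept cells, and the 3 libraries of the first deposit held the lowest medians. The UMIs summed over members ranged from 324324 in p21mTert_1 to 2574955 in p21mTert_4. No member's barcode was shared between libraries. Doublet marking by Scrublet covered 13.9% of members and 6.12% of kept cells. Among members that share was 28.6% in p21Het_3, 22.3% in p21Het_2 and 3.49% in p21Het_1.

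The label held for most members and not for all of them. Of the 1109 members, 168 (15.1%) drew at least 1% of their UMIs from 7 contractile genes (Acta2, Myh11, Actg2, Des, Cnn1, Lmod1 and Tagln). In these contractile members Itga8, an integrin chain, was detected in 97.6% with a median of 7 UMIs, Npnt in 87.5% with a median of 3 UMIs, and Tcf21 in 23.2%. A further 36 members (3.25%) held at least 5 UMIs of the mesothelial genes Msln, Upk3b, Wt1 and Lrrn4, and 13 (1.17%) at least 10 UMIs of 7 pericyte genes. In the mesothelial members Npnt was detected in every cell and Tcf21 in none, and 58.3% were marked as doublets. The other 892 members (80.4%) are called the remaining members. These borders were drawn after the values were seen. The contractile border was thinly filled, with 28 members between 0.5% and 2% contractile UMIs, and no member outside the mesothelial class held more than 1 mesothelial UMI while none inside held fewer than 23. The pericyte border was not sharp, since 6 remaining members held 5 to 9 pericyte UMIs beside the 13 of the class.

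The 4 kinds of cell differed in their leading genes far beyond the genes that drew the borders. Inmt, a methyltransferase typical of lung fibroblasts, was detected in 98.7% of the remaining members and in 3.57% of the contractile ones. Pdgfra was detected in 97.1% of the remaining and 0.595% of the contractile members. Actc1, the cardiac-type alpha actin, was detected in 86.9% of the contractile and 0.336% of the remaining members. Pdgfrb, the platelet-derived growth factor receptor of mural cells, was detected in every pericyte member, 71.4% of the contractile and 26.3% of the remaining members. The retinoic acid synthase gene Aldh1a2 was detected in every mesothelial member and in 0.336% of the remaining ones. Hhip, a hedgehog inhibitor known from ductal myofibroblasts, was detected in 5.95% of the contractile and 15.8% of the remaining members, whereas its level ran the other way, at 117 and 57.1 CPM. The contractile share of members ran from 9.72% in p21mTertCD_2 to 25% in p21Het_3, and mesothelial members were absent from p21Het_1 and p21mTertCD_1.

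**Figure D1:**
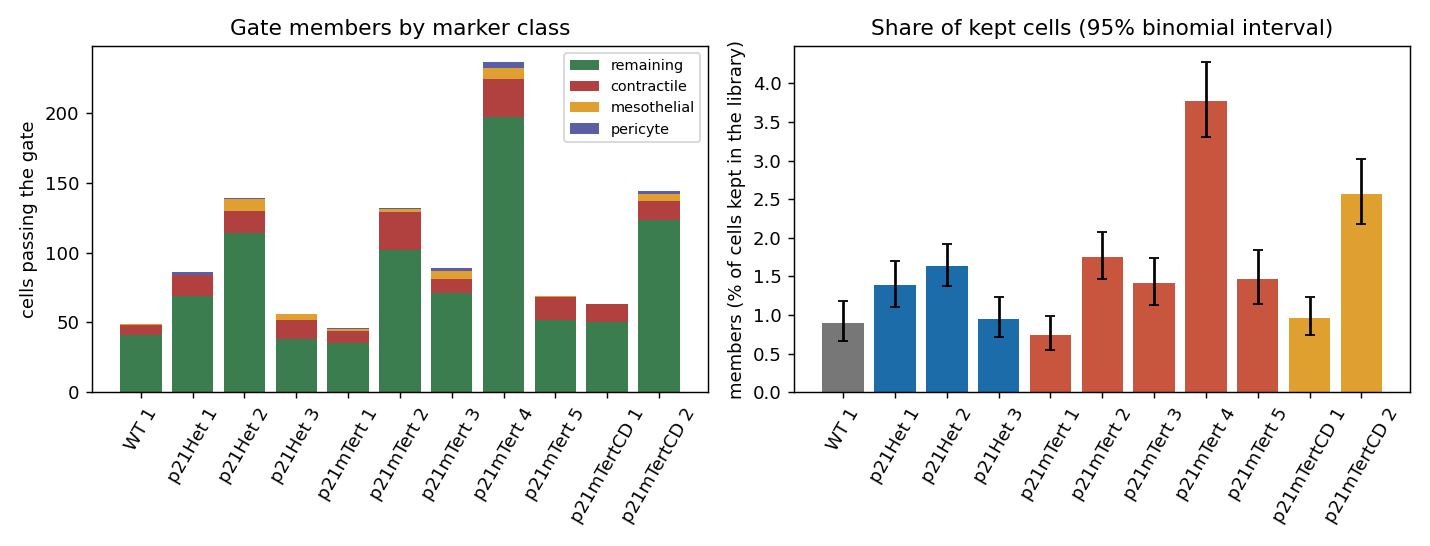
Left, the number of gate members in each library, stacked by marker class. Right, members as a percentage of the kept cells of the library, with exact 95% binomial intervals, coloured by group (grey WT, blue p21Het, red p21mTert, yellow p21mTertCD). The remaining members made up most of every bar on the left, and p21mTert_4 (3.77%) and p21mTertCD_2 (2.57%) stood highest on the right.

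The threshold on the alveolar genes lay in a thinly filled range, and those on collagen and Ptprc did not. In all, 27 members sat at exactly 2 alveolar UMIs, and they had a median of 8205 UMIs. Another 27 cells fell out because they held 1 alveolar UMI and no adventitial one, and 26 because both sums were equal. A larger number, 152, held 2 or more alveolar UMIs but still more adventitial ones, and these count among the 342 adventitial fibroblasts. The collagen condition held 83 members at exactly 3 UMIs and left out 84 cells at 2, and 149 cells that met all else were left out for a Ptprc UMI.

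Levels below are UMIs of a gene summed over the cells of a class in a library and scaled to a total of 1e+06 UMIs (CPM). They describe the members, since the gate was drawn on the same cells, and they are not compared between genes. The adventitial class was not cleared by marker class as the remaining members were. Of its 342 cells, 276 fell outside the contractile, mesothelial and pericyte borders. Its 5 mesothelial markers summed to 885 to 2490 CPM per library, against 86.2 to 193 CPM in the remaining members. The part of such cells in the differences from adventitial fibroblasts was not tested. In the remaining members Npnt, the nephronectin gene of the alveolar basement membrane, ranged from 1541 to 2708 CPM over the 11 libraries, against a mean of 59.0 CPM in adventitial fibroblasts. Itga8 averaged 865 CPM in the remaining members. Tcf21 ranged from 312 to 807 CPM, with its lowest value in p21Het_3, against 104 CPM in adventitial fibroblasts.

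Most listed genes that the rule did not use followed the same division. The list was chosen with earlier results of these data known, so its count describes the cells and is no independent support. Of 23 further alveolar fibroblast genes, 20 were higher in the remaining members than in adventitial fibroblasts of the same library in all 11 libraries, and Gpc3 was higher in none. Over the 8886 genes outside the rule with a mean of at least 10 CPM over both classes, 8.11% were higher in all 11 libraries and 7.95% in none, and the list counts of this kind below are over genes past the same limit. Inmt averaged 6236 ± 1053 CPM (SD, n = 11) in the remaining members and 1455 ± 414 CPM in adventitial fibroblasts. Limch1, an actin-binding protein gene, averaged 2261 ± 236 CPM against 258 ± 89.9 CPM. Scube2, which encodes a secreted protein of hedgehog signalling, averaged 266 ± 82.4 CPM against 3.89 ± 5.03 CPM. Slc7a10, an amino acid transporter gene, averaged 157 ± 51.4 CPM against 1.86 ± 6.18 CPM. Gpc3, a glypican gene, averaged 498 ± 113 CPM against 1361 ± 335 CPM.

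Genes were next ranked by the ratio of the remaining members to the highest of the adventitial, mural and Ptprc-positive classes. For this ratio 5 CPM was added to both sides. The rule genes were left out, and so were genes averaging under 50 CPM over the remaining members. A high level in these cells was thus a condition of entry. Epithelial and endothelial cells formed no class here, so the ranking does not compare the remaining members with them. Scn3a, a voltage-gated sodium channel gene, came first in that order, with a mean of 294 CPM in the remaining members, against 3.41 CPM in adventitial fibroblasts and none in mural cells. Nebl (nebulette, 438 CPM) and Vipr2 (a receptor for vasoactive intestinal peptide, 99.9 CPM) were also among the first 5, next to Scube2 and Slc7a10. Fgfr4 averaged 67.2 CPM and was under 1 CPM in each of the other 3 classes.

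**Figure D2:**
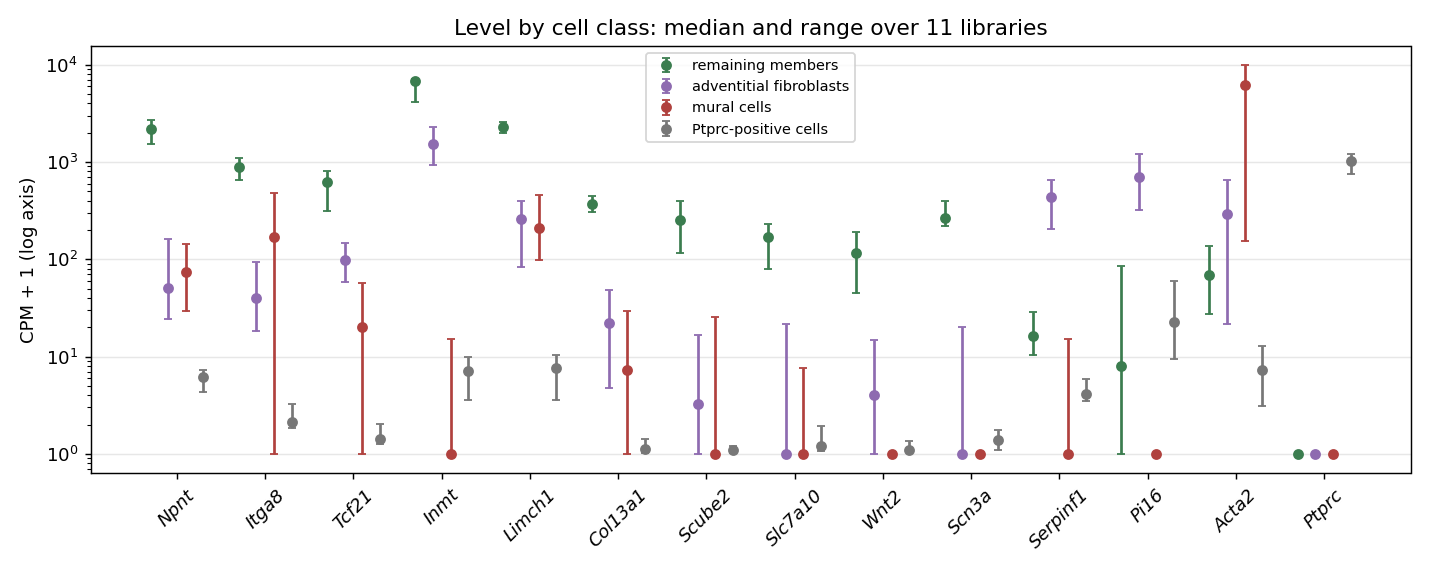
CPM + 1 on a log axis for 14 genes in the remaining members, adventitial fibroblasts, mural cells and Ptprc-positive cells. Points are medians and bars the lowest and highest of the 11 libraries. Npnt, Itga8, Tcf21, Serpinf1, Pi16 and Ptprc were used by the gate, whereas Inmt to Scn3a and Acta2 were not.

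Secreted niche signals were examined next. Wnt2, an alveolar WNT ligand, was measured at 190 CPM in WT_1 of the remaining members. It reached 126, 77.6 and 44.2 CPM in p21Het_1 to p21Het_3, and 102, 132, 100, 160 and 126 CPM in p21mTert_1 to p21mTert_5. In p21mTertCD_1 and p21mTertCD_2 it reached 56.4 and 115 CPM. The groups overlapped, and p21Het_3 was lowest. Fgf7, an epithelial growth factor, averaged 156 ± 29.1 CPM against 55.9 ± 22.2 CPM in adventitial fibroblasts and was higher in all 11 libraries. Bmp3 and Bmp5 were likewise higher in all 11 libraries. Rspo1, an enhancer of WNT signalling, lay the other way, with 2.50 ± 2.67 CPM in the remaining members and 192 ± 75.3 CPM in adventitial fibroblasts. Of 18 epithelial niche ligands, 4 were higher than in adventitial fibroblasts in all 11 libraries and 5 in none. Among 16 endothelial niche ligands the counts were 5 and 2. Angpt1, the TIE2 ligand that steadies capillaries, averaged 362 ± 69.0 CPM against 72.0 ± 17.0 CPM. Vegfd averaged 381 ± 71.2 CPM against 142 ± 64.6 CPM, and Sema3c averaged 10.5 ± 12.1 CPM against 252 ± 87.1 CPM.

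Of 18 elastic fibre and crosslinking genes, 6 were higher than in adventitial fibroblasts in all 11 libraries and 3 in none. Lox, which crosslinks elastin and collagen, averaged 310 ± 127 CPM in the remaining members and 66.7 ± 14.3 CPM in adventitial fibroblasts, and it was higher in all 11 libraries together with Loxl1, Emilin1, Ltbp1, Ltbp4 and Mfap4. Fbln1, Fbln2 and Efemp1 were higher in none. Eln, the elastin gene, averaged 736 ± 290 CPM against 471 ± 119 CPM and was higher in 9 of 11. The fibrillar collagen gene Col1a1 averaged 669 ± 121 CPM against 900 ± 250 CPM and was higher in 1 of 11. Of 18 collagen genes, 3 were higher in all 11 libraries and 3 in none. Of 19 matrix turnover genes, 2 were higher in all 11 libraries and 8 in none, Mmp3 and Timp1 among the 8. The list of 22 fibrosis and activation genes summed to 8178 to 11828 CPM in the remaining members. Of the 17 past the limit, 4 were higher in all 11 libraries and 1 in none. In the list, Cthrc1, a marker of fibrotic fibroblasts, averaged 0.136 CPM, and Lrrc15 and Grem1 held no UMI.

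Of 19 lipid storage and retinoid genes, 6 were higher than in adventitial fibroblasts in all 11 libraries and 4 in none. Plin2, which coats lipid droplets, averaged 158 ± 36.2 CPM against 38.0 ± 15.4 CPM in adventitial fibroblasts. Lrat, which esterifies retinol for storage, averaged 292 ± 113 CPM against 29.3 ± 30.5 CPM. Aldh1a1, a retinal dehydrogenase gene, averaged 1542 ± 292 CPM against 257 ± 62.4 CPM. These 3 were among the 6, and the lipogenic regulator gene Pparg averaged 4.05 CPM.

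The share of members among kept cells was compared between genotypes. It was 0.897% in WT_1 (exact 95% interval 0.664% to 1.18%). It was 1.38%, 1.63% and 0.955% in p21Het_1 to p21Het_3, and 0.739%, 1.75%, 1.41%, 3.77% and 1.46% in p21mTert_1 to p21mTert_5. In p21mTertCD_1 and p21mTertCD_2 it was 0.961% and 2.57%. The p21mTert range enclosed all other libraries. The means were 1.32 ± 0.342% (SD, n = 3) in p21Het, 1.83 ± 1.15% (n = 5) in p21mTert and 1.77 ± 1.14% (n = 2) in p21mTertCD. The 2-sided exact permutation tests gave p = 0.679 for p21mTert against p21Het, p = 1 against p21mTertCD, and p = 0.6 for p21mTertCD against p21Het. The smallest p these sizes allow is 0.0179, 0.0476 and 0.1. The difference of p21mTert from p21Het, 0.504 percentage points, was 0.0185 without p21mTert_4. The difference of p21mTert from p21mTertCD, 0.0603 percentage points, turned to -0.425 without p21mTert_4 and to -0.746 without p21mTertCD_1, and that of p21mTertCD from p21Het turned from 0.444 to -0.362 without p21mTertCD_2.

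As a share of alveolar and adventitial fibroblasts together, members made up 66.2% in WT_1 (54.3% to 76.8%). The means were 71.7 ± 8.18% in p21Het, 77.9 ± 8.09% in p21mTert and 73.6 ± 0.417% in p21mTertCD. The lowest library was p21Het_3 (62.2%) and the highest p21mTert_4 (87.1%). The exact permutation tests gave p = 0.375, 0.524 and 1 in the same order of comparisons. Adjusted over the 6 share tests, every p was 1. The cells were obtained by enzymatic dissociation, so that a share counts what was released and kept.

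Cdkn1a, the gene whose locus was altered, was measured at 111 CPM in the members of WT_1. It reached 42.3, 106 and 295 CPM in p21Het_1 to p21Het_3, and 24.7, 211, 228, 99.0 and 64.7 CPM in p21mTert_1 to p21mTert_5. In p21mTertCD_1 and p21mTertCD_2 it reached 118 and 95.7 CPM. The p21mTertCD libraries lay within the ranges of both other groups, the p21Het and p21mTert libraries overlapped, and the lowest value rested on 8 UMIs. The differences of mean log2(CPM + 1) were -0.21 for p21mTert minus p21Het, -0.16 for p21mTert minus p21mTertCD and -0.05 for p21mTertCD minus p21Het. The exact permutation tests gave p = 0.857, 0.952 and 1, each 1 after adjustment over the 6 tests of both genes. As for the shares, these tests cannot give a p below 0.0179, 0.0476 and 0.1, and the same holds for Tert. Reads of the altered allele that retain the 3′ end of Cdkn1a cannot be told apart from those of the normal allele.

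Tert was at the edge of detection. The members held 0 Tert UMIs in WT, 3 in the 3 p21Het libraries, 10 in the 5 p21mTert libraries and 3 in the 2 p21mTertCD libraries. The highest level was 4.32 CPM (4 UMIs, exact Poisson 95% interval 1.18 to 11.1 CPM) in p21mTert_3. Both p21mTert_1 and p21mTert_5 held none, which allows up to 9.25 and 4.31 CPM by the limit of 3 counts. The exact permutation tests gave p = 0.839, 0.762 and 0.6. A difference in Tert was not detectable at this depth in these cells.

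Members of p21mTert and p21Het mice were next compared gene by gene. UMIs were summed per library and fitted with edgeR's quasi-likelihood test over the 10 replicated libraries, which tested 9335 genes. No gene had a Benjamini-Hochberg adjusted p under 0.05 (0%), and 380 (4.07%) had an unadjusted p under 0.05. DESeq2 on the same sums called 2, Lpl and Gm47283. Without p21Het_1 edgeR called 3, Lpl, Podn and Ifit3, and without either p21mTertCD library it called Gm10600. Lpl, the lipoprotein lipase gene, whose product frees fatty acids for uptake, had the smallest p. It was measured at 86.1, 167 and 165 CPM in p21Het_1 to p21Het_3. In p21mTert_1 to p21mTert_5 it was measured at 46.2, 50.7, 55.0, 35.7 and 51.7 CPM. All 5 p21mTert libraries lay below all 3 p21Het libraries, which 1.21% of the tested genes showed. On the log2 scale the difference was -1.56 (SE 0.25, adjusted p = 0.183 by edgeR). With a term for the deposit it was -1.67 (edgeR adjusted p = 0.0344) and within the later deposit -1.82 (edgeR adjusted p = 0.0348), against a range of adjusted p over all alternatives of 1.31e-11 to 0.608, and Lpl was called in both fits. WT_1 stood at 25.3 CPM, below every p21mTert library. In p21mTertCD, p21mTertCD_1 at 118 CPM lay within the p21Het range, and p21mTertCD_2 at 76.7 CPM lay between the groups.

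The remaining members gave the same order for Lpl. It was measured at 118, 211 and 246 CPM in p21Het_1 to p21Het_3 and at 48.8, 65.4, 70.1, 35.9 and 71.8 CPM in p21mTert_1 to p21mTert_5. Cells with a Lpl UMI made up 34.8%, 50.9% and 68.4% of the remaining members in p21Het_1 to p21Het_3 and 16.8% to 33.8% in p21mTert. The single richest cell held at most 20.9% of the Lpl UMIs in any of these 8 libraries except p21mTert_1 (36.4%) and p21mTert_5 (27.3%). Ptprc-positive cells carry far more Lpl, at a mean of 417 CPM, and their levels overlapped, at 432.6 to 465.9 CPM in p21Het and 311.9 to 624.1 CPM in p21mTert. Of 6 macrophage or monocyte markers the summed level in the remaining members was 132 to 228 CPM in p21Het and 176 to 409 CPM in p21mTert, and these ranges overlapped. Only 1 of them, Lyz2, passed the filter on low counts. It lay higher in p21mTert at an unadjusted p under 0.05, with a log2 difference of 0.77. In the same cells 3 of 4 epithelial markers tested also lay higher, and the cell source of the Lyz2 UMIs was not tested. In adventitial fibroblasts Lpl overlapped between the groups, at 36.5 to 271 CPM in p21Het and 90.6 to 182 CPM in p21mTert. The difference of the genotype effect between the 2 fibroblast kinds was -1.18 on the log2 scale (SE 0.50, adjusted p = 1 by edgeR).

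When the contractile, mesothelial and pericyte members were left out, the same edgeR fit over 8172 genes called 5 genes (0.0612%) for p21mTert minus p21Het. The borders of the remaining members were set after the values were seen, so these calls are an added alternative and no independent support. For Lpl the log2 difference was -1.74 (SE 0.28, edgeR adjusted p = 0.0183). Podn, which encodes a small leucine-rich matrix protein, had -1.36 (SE 0.22, edgeR adjusted p = 0.0183). Pamr1, which encodes a secreted protein with peptidase-like domains, had -1.24 (SE 0.21, edgeR adjusted p = 0.0319). The receptor tyrosine kinase gene Axl had -1.35 (SE 0.25) and missed the threshold (edgeR adjusted p = 0.0568). With a term for the deposit Pamr1 lost its call (edgeR adjusted p = 0.0701), as it did in the later deposit alone (edgeR adjusted p = 0.133), while Lpl and Podn were called in both. Over 14 settings Lpl was called in 11, Podn in 9 and Pamr1 in 6. Without p21Het_2 or without p21Het_3 the count was 0, and without p21mTert_4 it was 1.

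Besides these 3, the called genes were the predicted genes Gm10600 and Gm47283, described below. Both had an edgeR adjusted p of 0.0183, of 0.031 with a term for the deposit and of 0.133 in the later deposit alone. DESeq2 called Gm47283 (DESeq2 adjusted p = 3.0e-05) but not Gm10600 (DESeq2 adjusted p = 0.521). Podn in the remaining members was measured at 88.2, 98.4 and 156 CPM in p21Het_1 to p21Het_3 and at 71.0, 35.2, 37.3, 41.8 and 50.0 CPM in p21mTert_1 to p21mTert_5. Over all members the groups overlapped for Podn, at 63.5, 146 and 151 CPM against 61.4 to 89.1 CPM. Pamr1 in the remaining members was measured at 122, 92.7 and 170 CPM in p21Het and at 71.0, 36.1, 56.7, 47.2 and 69.6 CPM in p21mTert, with WT_1 at 127 CPM among the p21Het libraries. Podn and Pamr1 kept p21mTert and p21Het apart, as did 1.69% of tested genes with p21mTert lower. In the remaining members WT_1 lay within the p21mTert range for Podn (63.3 CPM) and for Axl (28.1 CPM). In p21mTertCD_1 and p21mTertCD_2, Podn stood at 73.3 and 55.4 CPM, Pamr1 at 56.4 and 82.4 CPM and Axl at 37.6 and 62.0 CPM. Podn, Axl and Pamr1 are also carried by adventitial fibroblasts, at means of 249, 195 and 123 CPM. The summed level of 11 adventitial markers in the remaining members was 2367 to 4077 CPM in p21Het and 2083 to 2827 CPM in p21mTert. Of the 9 of them tested, 5 (Ly6a, Clec3b, Mfap5, Ccl11 and Htra3) lay lower in p21mTert at an unadjusted p under 0.05 and 0 higher, with a median log2 difference of -0.58, where 2.99% of all genes lay lower and 2.01% higher. The summed level of 11 ductal or myofibroblast markers did not overlap, at 312 to 386 CPM in p21Het and 132 to 304 CPM in p21mTert. Of the 5 of them tested, 4 (Aspn, Hhip, Mustn1 and Wnt5a) lay lower in p21mTert at an unadjusted p under 0.05 and 0 higher, with a median of -0.99. Of 4 epithelial markers tested, 3 (Sftpc, Sftpa1 and Scgb1a1) lay higher in p21mTert and 0 lower, with a median of 0.78. The part of these marker lists in the differences of Lpl, Podn, Axl and Pamr1 was not tested.

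**Figure D3:**
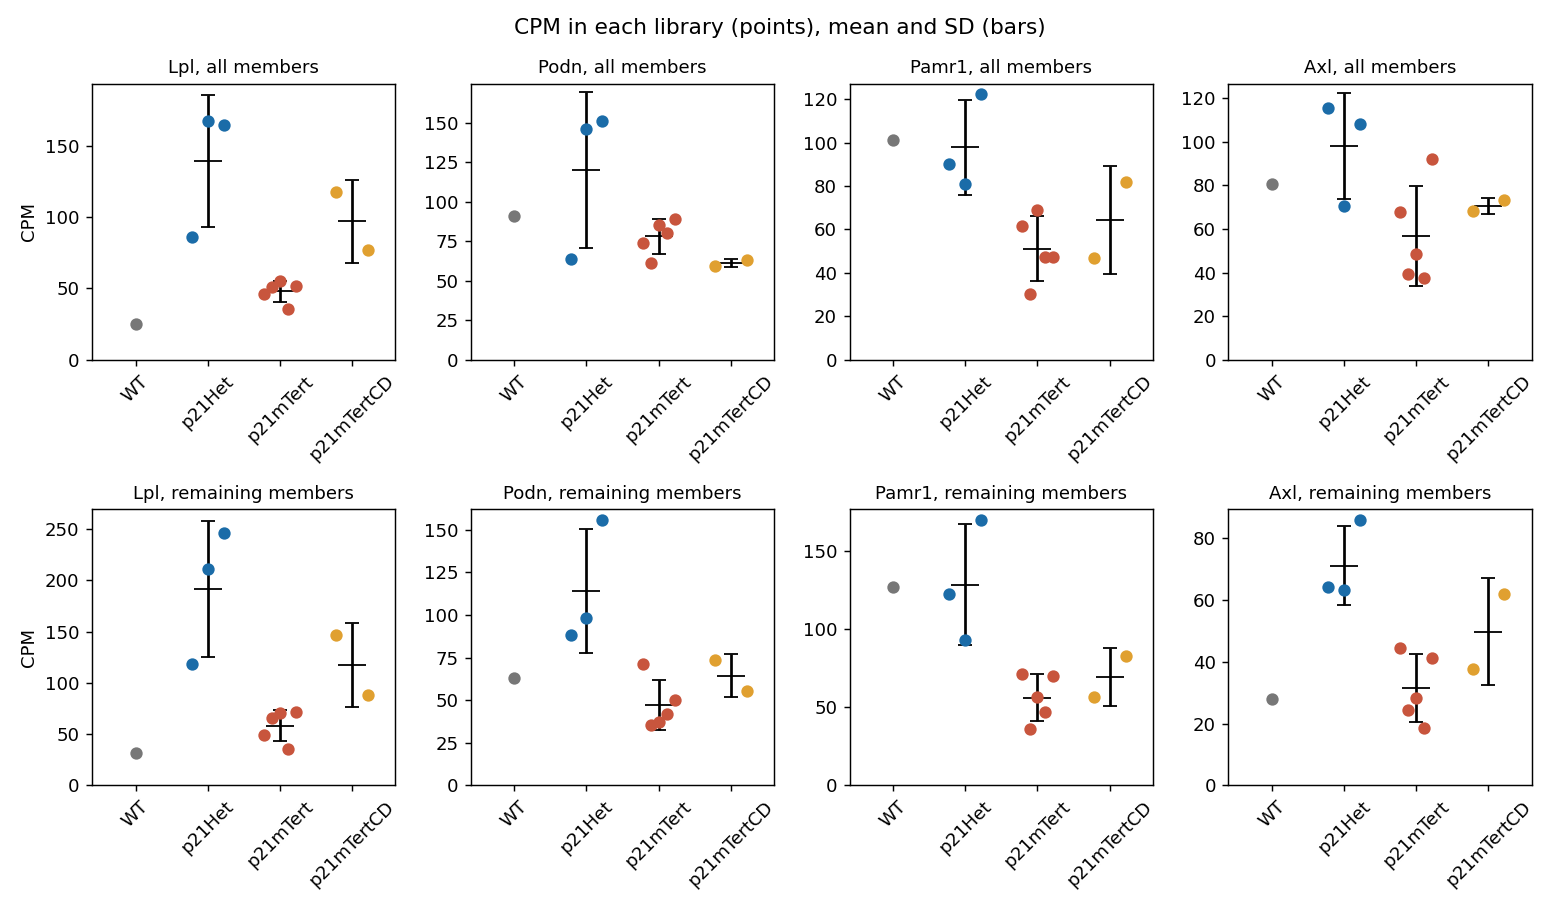
CPM of Lpl, Podn, Pamr1 and Axl in each library, over all members (top) and over the remaining members (bottom). Points are libraries, and black bars give the mean and SD of the replicated groups. The 5 p21mTert libraries lie below the 3 p21Het libraries for Lpl and Pamr1 in both rows, and for Podn and Axl in the lower row.

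A pair of predicted genes separated p21mTert from p21Het in the members. Gm10600 (chromosome 4, 42240639 to 42242685, mm10, GENCODE M21, protein coding) was measured at 40.4 CPM in the members of WT_1 and at 43.7, 47.0 and 51.3 CPM in p21Het_1 to p21Het_3. It stood at 25.5 CPM in p21mTertCD_1. It held no UMI in the members of any of the 5 p21mTert libraries or of p21mTertCD_2. Pooled over libraries, its level was at least 93.3-fold lower in p21mTert than in p21Het, taking 3 counts over the group as the floor. Ptprc-positive cells and adventitial fibroblasts showed UMIs of Gm10600 in the same 5 libraries and none in the same 6. Gm47283 (chromosome Y, 90784738 to 90816464) was measured at 38.1, 22.8 and 41.3 CPM in p21Het_1 to p21Het_3 and at 136, 75.0, 107, 81.9 and 211 CPM in p21mTert_1 to p21mTert_5, with WT_1 at 78.4 CPM among the latter. Its log2 fold change for p21mTert minus p21Het was 1.85 (SE 0.32, adjusted p = 0.183 by edgeR). In Ptprc-positive cells it lay at 14.7 to 54.1 CPM in p21Het and 49.3 to 96.9 CPM in p21mTert. Adventitial fibroblasts also kept the groups apart, at 11.6 to 22.8 CPM in p21Het and 32.0 to 107 CPM in p21mTert. In mural cells the groups overlapped, at 0 to 55.8 CPM and 38.3 to 227 CPM. The Y-linked gene Ddx3y was detected in the members of every library, at 80.8 to 124 CPM. Both predicted genes may share reads with near-identical copies, so their counts are uncertain.

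Other genes with the smallest p in this comparison did not pass. Atad2, a chromatin-binding ATPase gene linked to replication, was measured at 26.8, 32.3 and 35.6 CPM in p21Het_1 to p21Het_3 and at 9.25, 13.6, 12.9, 15.1 and 18.7 CPM in p21mTert_1 to p21mTert_5. Its log2 difference was -1.12 (SE 0.22, adjusted p = 0.395 by edgeR), and WT_1 was lowest of all at 2.53 CPM. Igfbp4, which binds insulin-like growth factors, was measured at 288, 315 and 457 CPM in p21Het and at 161 to 256 CPM in p21mTert, with a log2 fold change of -0.80 (SE 0.19).

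For p21mTert against p21mTertCD, no gene was called (0%) by edgeR or by DESeq2, Gm10600 alone was called without p21mTertCD_2, and 419 of 9335 (4.49%) had an unadjusted p under 0.05. Abhd13, an alpha/beta hydrolase gene, had the smallest p. It was measured at 12.3, 16.4, 21.6, 19.4 and 25.9 CPM in p21mTert_1 to p21mTert_5 and at 44.0 and 39.8 CPM in p21mTertCD (log2 fold change -1.09, SE 0.23). Pmepa1, a feedback inhibitor of TGF-beta signalling, was measured at 379 to 463 CPM in p21mTert and at 758 and 695 CPM in p21mTertCD, with p21Het at 460, 542 and 803 CPM. Ide, the insulin-degrading enzyme gene, lay at 27.8 to 43.1 CPM in p21mTert and at 68.1 and 71.1 CPM in p21mTertCD. Ism1, a secreted regulator of alveolar cells, lay at 110 to 185 CPM and at 202 and 218 CPM. Ly6c1, a gene of endothelial and myeloid cells, lay at 0 to 11.3 CPM and at 68.1 and 19.0 CPM. Gm47283, described above, was the only one of the 6 with p21mTert higher (log2 fold change 1.58, SE 0.35), with p21mTertCD at 31.2 and 43.7 CPM. The edgeR adjusted p of each was 0.702. All these genes kept the groups apart, as did 4.18% of tested genes with p21mTert lower and 4.76% with it higher. Cxcl15, an epithelial gene among the 6 of smallest p in the remaining members, lay at 18.5 to 60.7 CPM against 8.51 and 12.3 CPM. The summed epithelial markers in the remaining members stood at 1669 to 3697 CPM in p21mTert and at 975.4 and 848.9 CPM in p21mTertCD, and their part in the Cxcl15 difference was not tested.

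For p21mTertCD against p21Het, no gene was called (0%) by edgeR or by DESeq2, Gm10600 alone was called without p21mTertCD_1, and 407 (4.36%) had an unadjusted p under 0.05. Prss23, a serine protease gene, was measured at 224, 132 and 161 CPM in p21Het and at 62.4 and 78.9 CPM in p21mTertCD (log2 fold change -1.21, SE 0.27). Crip1, a small LIM-domain protein gene, was measured at 1579, 1724 and 2906 CPM in p21Het and at 929 and 863 CPM in p21mTertCD. Cmklr1, the chemerin receptor gene, was measured at 127, 110 and 122 CPM in p21Het and at 163 and 180 CPM in p21mTertCD. Urb1, a ribosome assembly gene, lay at 8.46 to 15.7 CPM and at 2.84 and 2.24 CPM, and Snx19 at 12.7 to 14.0 CPM and at 31.2 and 25.8 CPM. Atad2 was again among the 6 genes of smallest p, at 12.8 and 16.2 CPM in p21mTertCD. The edgeR adjusted p of each was 0.996. In the same members 7 of 7 smooth muscle markers and 4 of 5 mesothelial markers had a log2 fold change below 0, with medians of -0.68 and -1.53. Over the remaining members Prss23 did not pass the filter on low counts, and the log2 fold change of Crip1 was -0.52 (SE 0.24) against -1.16 (SE 0.30) over all members. Groups of this size stay apart often, for 9.56% of tested genes with p21mTertCD lower and 8.02% with it higher. The p21Het libraries enter both this comparison and the first, so the Atad2 values are shared.

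The genotype effect was compared between alveolar and adventitial fibroblasts in 9 libraries, since p21mTert_5 held only 15 adventitial fibroblasts. Over all members and all adventitial fibroblasts, edgeR called none of 8457 genes (0%) in any of the 3 comparisons. In these, 338 (4%), 346 (4.09%) and 330 (3.9%) had an unadjusted p under 0.05. With contractile, mesothelial and pericyte cells left out of both kinds, edgeR called 1 of 8431 genes for p21mTert minus p21Het. It lay lower (edgeR adjusted p = 0.0012). That fit kept only libraries still holding at least 20 cells of both kinds, and its borders were drawn after the values were seen. Over all members and all adventitial fibroblasts the smallest edgeR adjusted p was 0.303, for p21mTert minus p21mTertCD. It belonged to Gfra2, Wfdc2 and Sftpd. Wfdc2 and Sftpd are genes of airway and alveolar epithelium. Without p21mTertCD_2 that comparison called 3 genes and p21mTertCD minus p21Het 1, and without p21mTert_3 or p21mTert_4 the former called 1.

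Gene lists were read by their counts. For p21mTert minus p21Het, 2.26% of all tested genes lay lower and 1.81% higher at an unadjusted p under 0.05, and the median log2 fold change of all genes was 0.00. Of 22 tested inflammatory fibroblast genes, 4 lay lower (Cxcl10, Cxcl12, Icam1 and Nfkbia) and 0 higher, with a median of -0.36. In the remaining members of p21Het_2, 1 cell held 531 of the 545 Cxcl10 UMIs. The remaining members of p21Het_1 and p21Het_3 held 3 and 2, and those of p21mTert_3 held 104. Of 24 senescence-associated secreted factors, 6 lay lower (Cxcl12, Igfbp4, Mmp2, Mmp3, Timp1 and Icam1) and 0 higher, with a median of -0.28. Of 27 interferon response genes, 4 lay lower (Ifit3, Isg15, Stat2 and Igtp) and 0 higher, with a median of -0.23. Of 19 matrix turnover genes, 5 lay lower and 0 higher, with a median of -0.13. Of 23 alveolar fibroblast genes, 4 lay higher (Slc7a10, Nebl, Ces1d and Fibin) and 0 lower, with a median of 0.23. None of these genes passed adjustment over all genes, and the lists share members such as Cxcl12, Mmp2 and Icam1. In the same members 10 of 11 adventitial markers had a log2 fold change below 0, 3 of them (Clec3b, Mfap5 and Htra3) at an unadjusted p under 0.05, with a median of -0.43. Of 9 ductal or myofibroblast markers 7 lay below 0, 3 of them (Aspn, Hhip and Wnt5a) at an unadjusted p under 0.05, with a median of -0.39. The 2 neutrophil markers tested lay below 0, S100a8 at an unadjusted p under 0.05, with a median of -1.59. The 4 epithelial markers tested lay above 0, Sftpc at an unadjusted p under 0.05, with a median of 0.68. Lyz2, of the macrophage or monocyte list, also lay higher at an unadjusted p under 0.05 (log2 fold change 0.68). The part of all these markers in the list counts was not tested.

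Genes of these and of the collagen list kept the groups apart in part, as did 1.21% of all tested genes with p21mTert lower. Col1a1, of the collagen and fibrosis lists, was measured at 608, 585 and 648 CPM in p21Het_1 to p21Het_3 and at 500, 377, 461, 536 and 540 CPM in p21mTert_1 to p21mTert_5. Mmp2, a gelatinase gene, lay at 240, 256 and 319 CPM in p21Het and at 181 to 228 CPM in p21mTert. Cxcl12, the CXCR4 ligand gene, lay at 181, 318 and 170 CPM in p21Het and at 70.7 to 146 CPM in p21mTert. Isg15, an interferon-induced ubiquitin-like gene, overlapped, at 29.6, 82.2 and 140 CPM against 12.3 to 69.1 CPM.

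In the 2 comparisons that hold p21mTertCD, other lists stood out by count, and both rest on the same 2 libraries. Of 23 growth factor receptor and TGF-beta genes, 6 lay lower in p21mTert than in p21mTertCD (Pdgfra, Fgfr1, Tgfbr2, Bmpr2, Smad3 and Smad7) and 0 higher, where 2.54% of all genes lay lower and 1.95% higher, and the median was -0.35. The same 6 lay higher in p21mTertCD than in p21Het, where 2.19% of all genes lay higher and 2.17% lower. Bmpr2, the type 2 BMP receptor gene, was measured at 342 and 254 CPM in p21mTertCD and at 108 to 224 CPM in the other 9 libraries. Tgfbr2, the type 2 TGF-beta receptor gene, was measured at 617 and 502 CPM in p21mTertCD and at 299 to 460 CPM in the others. Over the remaining members the list held 4 of 22 lower for p21mTert minus p21mTertCD (Pdgfrb, Tgfbr2, Bmpr2 and Smad3, against 2.2% of all genes). For p21mTertCD minus p21Het it held 1 of 22 higher (Bmpr2, against 1.52% of all genes). Pdgfra was in neither count. The share of contractile cells among members was 9.72% in p21mTertCD_2 and 20.6% in p21mTertCD_1, and 7 of 7 smooth muscle markers had a log2 fold change below 0 for p21mTertCD minus p21Het, with a median of -0.68 and Acta2 and Tagln at an unadjusted p under 0.05. All 6 endothelial markers lay above 0 in that comparison, with a median of 0.59, and below 0 for p21mTert minus p21mTertCD, with a median of -0.87, none at an unadjusted p under 0.05. Beyond the fit over the remaining members, the part of these cells in the differences of Pdgfra, Bmpr2 and Tgfbr2 was not tested. Of 23 alveolar fibroblast genes, 7 lay higher in p21mTertCD than in p21Het (Limch1, Col13a1, Macf1, Ces1d, Vegfd, Pdgfra and Cdh11) and 0 lower, with a median of 0.41. Over the remaining members 1 of 23 (Ces1d) lay higher and 0 lower, with a median of 0.21.

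Of 27 interferon response genes, 8 lay lower and 1 higher at an unadjusted p under 0.05 for p21mTert minus p21mTertCD, where 2.54% of all genes lay lower and 1.95% higher. No gene passed adjustment there. Iigp1, an interferon-gamma GTPase gene, was measured at 240 and 99.1 CPM in p21mTertCD, at 47.2 to 73.3 CPM in p21mTert and at 43.7, 106 and 76.9 CPM in p21Het. Of 22 inflammatory genes, 7 lay lower and 0 higher in the same comparison, with a median of -0.34. The list summed to 14580 CPM in p21mTertCD_1 but to 8294 CPM in p21mTertCD_2, which is within the p21mTert range of 5384 to 8823 CPM, and Saa3, Lcn2 and Hp of the 7 were high in p21mTertCD_1 only of this pair. In the same comparison 4 of 4 epithelial markers tested (Sftpc, Sftpb, Sftpa1 and Scgb1a1) lay higher in p21mTert at an unadjusted p under 0.05, with a median of 1.53. Lyz2 did so too (log2 fold change 0.80). The part of these markers in the interferon, inflammatory and growth factor receptor counts was not tested. The p53 targets, cell cycle and telomere lists had at most 1 gene at an unadjusted p under 0.05 in any comparison (Mdm2 of 19 p53 targets, Pot1a of 12 telomere genes, and none of 6 cell cycle genes). Mki67, a proliferation marker, was detected in 3 of the 892 remaining members.

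**Figure D4:**
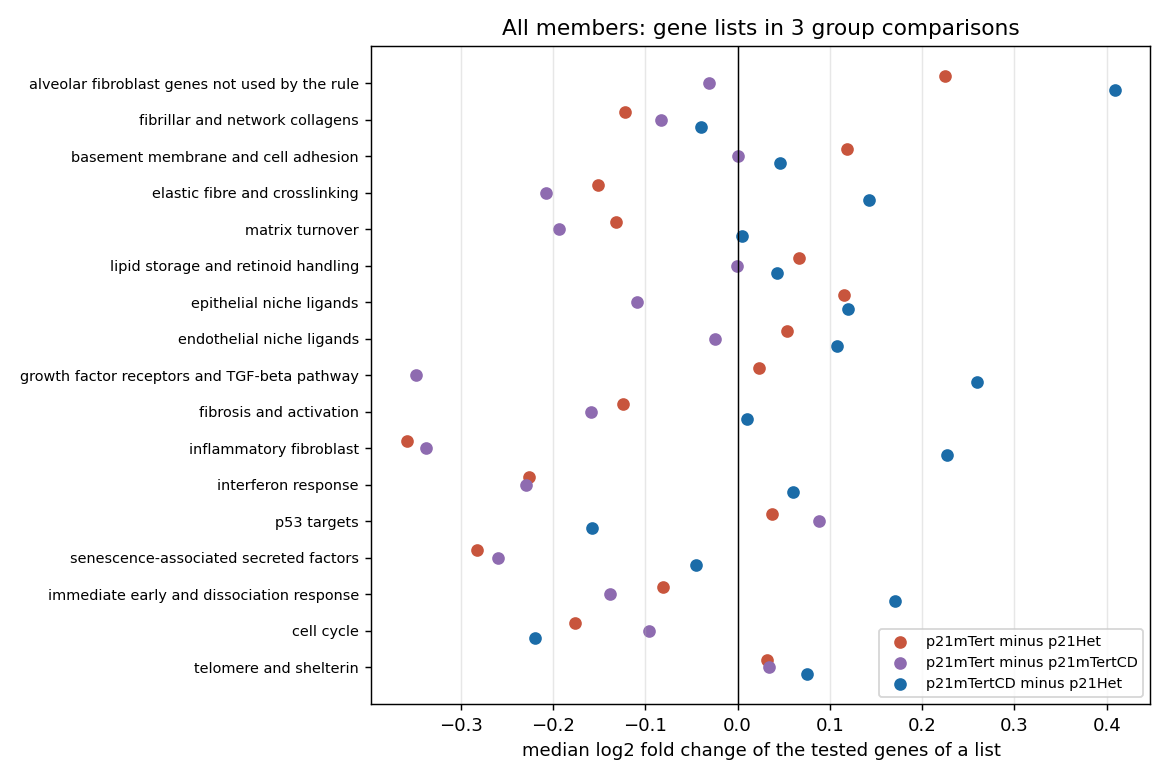
Median log2 fold change over the tested genes of each of 17 lists in the 3 group comparisons, over all members. Each point is 1 list in 1 comparison. The inflammatory list had medians of -0.36 and -0.34 in the comparisons with p21mTert, and the growth factor receptor list -0.35 against p21mTertCD.

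Acute-phase genes, picked after their values were seen, differed widely between libraries of 1 genotype. Saa3, a serum amyloid gene, was measured in all members at 710 CPM in p21Het_2, 1256 CPM in p21mTertCD_1, 175 CPM in p21mTert_3 and 28.4 CPM in p21mTert_4. It was at 1.41 to 3.08 CPM in the other 7 libraries, so that the replicated groups overlapped. Lcn2, the siderophore-binding lipocalin gene, followed the same order at the top, with 2221 CPM in p21mTertCD_1 and 740 CPM in p21Het_2, and 6.43 to 138 CPM elsewhere. Hp, the haptoglobin gene, reached 1432 and 790 CPM in these libraries and 22.7 to 231 CPM elsewhere. For p21mTert minus p21mTertCD the log2 fold change of Lcn2 was -3.9 (SE 1.17, adjusted p = 0.865 by edgeR), with p21mTertCD_1 and p21mTertCD_2 at 2221 and 26.3 CPM.

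Saa3 was detected in 28.0% of the remaining members of p21mTertCD_1 and in 14.9% of those of p21Het_2, and in 0% to 4.23% in the other libraries. The richest cell held 43.5% of the Saa3 UMIs in p21mTertCD_1 and 27.6% in p21Het_2, and without it Saa3 still stood at 988 and 662 CPM. In p21mTert_3 its 162 UMIs lay in 3 cells, the richest with 51.9% of them. In p21mTert_4 the richest cell held 90.3% of the Saa3 UMIs, and without it Saa3 stood at 3.45 CPM. Cxcl10 in p21Het_2 came to 97.4% from 1 cell.

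**Figure D5:**
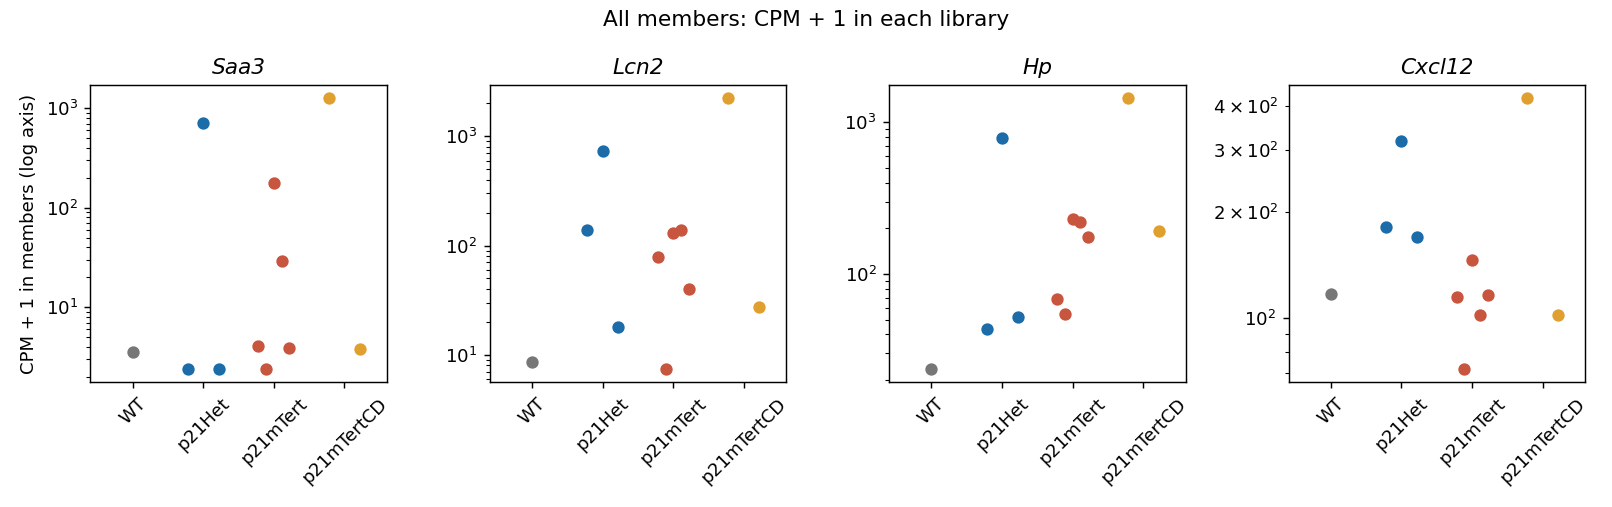
CPM + 1 of Saa3, Lcn2, Hp and Cxcl12 in all members of each library, on log axes, by group. Each point is 1 library. For Saa3, p21Het_2 and p21mTertCD_1 stand at 710 and 1256 CPM while the other libraries of their groups lie at 1.41 to 2.80 CPM.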

How the data were processed

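Cells were profiled as 3′ UMI counts in 11 mouse lung libraries. The authors deposited raw counts per gene and barcode, aligned to mm10 with Cell Ranger per the labels and the submitters' processing notes. The sources used here differ on its version, so none is given. Tests need the spread between libraries, so UMIs were summed per library over the cells of a class, and cells were never replicates. Gene tests used edgeR's quasi-likelihood method (version 4.0.16, R 4.3.3) with its default expression filter, TMM factors and a group term over 10 libraries, with Benjamini-Hochberg adjustment over all genes. The difference between fibroblast kinds was an interaction with the library as a block, for libraries with at least 20 cells of both kinds. Shares, Cdkn1a and Tert were compared by 2-sided exact permutation tests, the genes as log2(CPM + 1). WT has 1 library and entered no test. The scripts were tested on simulated data.

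Libraries held 42038434 to 85988955 UMIs in all, and intervals and the limit of 3 counts cover counting error only. Doublets were marked, not removed, as the highest 0.8% of Scrublet scores (scanpy 1.11.5) per 1000 barcodes. Named genes were Cdkn1a, Tert, called genes, the 6 genes of smallest p with at least 10 CPM per comparison, the most abundant list genes and the rule genes. Other genes are named after their values were seen, among them the leading genes, list genes of small p, niche and matrix examples, and the acute-phase genes. The members and lists were chosen with earlier results of these data known. Gene positions are from GENCODE M21. Alternatives covered the gate, depth, doublets, mitochondrial limit, deposit, replicates left out, normalization, filter and DESeq2 1.42.0.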

Additional observations from a re-analysis of the deposited data

Results flagged for a closer look

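Of 78 values examined in the 5 p21mTert libraries, 4 had 1 library far from the others by Dixon's criterion, which chance gives for about 1 group in 20. The median UMIs per member were 6229 in p21mTert_1 and 9486 to 10132.5 in the other p21mTert libraries. Thbs1, a matricellular inhibitor of angiogenesis, was measured in the members at 1413 CPM in p21mTert_4 and at 1036 to 1105 CPM in the others. Bgn, the proteoglycan biglycan, was measured at 1862 CPM in p21mTert_2 and at 2344 to 2402 CPM in the others. Saa3 was measured at 174.8 CPM in p21mTert_3 and at 1.43 to 28.4 CPM in the others.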

How the results depend on the processing

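None of the share, Cdkn1a and Tert tests passed under any alternative, and the small differences changed sign in several. The exact tests of p21mTertCD against p21Het could not pass, since no p below 0.1 is possible there. With libraries left out the smallest possible p is higher still, so these failures do not show that the groups are alike. The share of members among kept cells for p21mTert minus p21mTertCD, 0.0603 percentage points, was -2.07 among cells without a Ptprc UMI, -0.0979 without marked doublets, -0.0218 over the remaining members and -0.818 in the replicate block. With single libraries left out it ran from -0.746 to 0.866, and for p21mTertCD minus p21Het from -0.362 to 1.25. The share among fibroblasts was -8.21 for p21mTert minus p21mTertCD after thinning to 1000 UMIs. For p21mTert minus p21Het it fell from 6.23 to 1.52 without p21Het_3. For p21mTertCD minus p21Het, 1.90 over all libraries, it was 18.8 after thinning, -2.11 in the replicate block and -2.82 to 4.46 with libraries left out. Cdkn1a on the log2 scale was 0.31 in the replicate block and -0.89 to 0.50 with libraries left out for p21mTert minus p21Het. For p21mTert minus p21mTertCD it was 0.39 over the remaining members, 0.32 in the later deposit, 1.13 in the replicate block and -0.47 to 0.32 with libraries left out. For p21mTertCD minus p21Het it was 0.0475 with 3 or more alveolar UMIs required and -0.73 to 0.66 with libraries left out. Tert for p21mTert minus p21Het was -0.17 without marked doublets and -0.26 to 0.43 with libraries left out. For p21mTert minus p21mTertCD it was 0.0034 in the later deposit, 1.01 in the replicate block and -0.90 to 0.39 with libraries left out. For p21mTertCD minus p21Het it was -0.0365 without marked doublets, -0.66 in the replicate block and -0.22 to 1.08 with libraries left out. The cause was not tested. Genes called for p21mTert minus p21Het numbered 2 with DESeq2, 73 with no filter on low counts, 1 with only the groups compared, 1 with a term for deposit, 1 in the later deposit, 5 over the remaining members, and 0 to 3 with libraries left out. For p21mTert minus p21mTertCD they numbered 87 with no filter, 1 in the replicate block and 0 to 1 with libraries left out, and for p21mTertCD minus p21Het 52 with no filter and 0 to 1. The interaction called 35, 70 and 59 genes with no filter in the 3 comparisons, 1 over the remaining members for p21mTert minus p21Het, and 0, 0 to 3 and 0 to 1 with libraries left out. The fits with no filter on low counts tested every gene with at least 1 UMI. That set is wider than the 9335 and 8457 genes of the main fits, so these counts are not shares of the same genes. The interaction could not be fitted with marked cells of other types left out, and has no replicate block. Whether replicate numbers pair the libraries could not be decided. Deviations from the group means correlated between -0.127 and 0.089 for the same number and between -0.205 and 0.269 for other numbers. The same-number pairs are few, and the deviations of the 2 p21mTertCD libraries mirror each other. Besides Cdkn1a and Tert, the genes named for the smallest p, with Podn and Axl, kept their sign under the alternatives run, and other genes named in the text were not refitted. Lpl was called in 6 of 21 alternatives to the fit over all members, with log2 differences of -1.83 to -1.34. The 21 include fits over parts of the members, and the fit over the remaining members is among the 6.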

Other observations

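Red cell transcripts in the members varied widely between libraries. The summed level of 3 erythroid markers in the remaining members ran from 32.3 CPM in p21mTertCD_2 to 3804 CPM in p21mTert_2, with 1438 and 1351 CPM in p21Het_2 and p21Het_3. Summed B cell markers ran from 10.9 CPM in p21mTert_5 to 169 CPM in p21mTert_3. The summed levels of the epithelial niche ligands ran only from 1355 to 1955 CPM, and those of the endothelial niche ligands from 2673 to 4082 CPM, the latter highest in p21mTert_4.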
